A study of Homo sapiens with 36 samples.

Results

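The 6 keratin genes KRT7, KRT8, KRT18, KRT19, KRT80 and KRT81 were followed in A549 cells, an established line of human lung adenocarcinoma, by RNA sequencing during and after chronic exposure to the cytokine IL-1β. The genes were found by matching the Ensembl identifiers of the count tables to the 6 symbols, and all 6 were present among the 63677 genes listed. Cells were kept in serum-containing RPMI medium and were either left untreated or given IL-1β at 1 ng/ml. They were collected on days 6, 15 and 21 of exposure, and again 6, 15 and 30 days after removal of the cytokine. Untreated cells were collected at the same 6 times, which gave 12 groups of 3 libraries each, labelled as biological replicates. All libraries came from 1 cell line, and nothing in the labels says how the replicate cultures were separated, so the p-values measure the spread between these samples.

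Keratins are the intermediate filaments of epithelial cells. A filament is built from pairs of 1 type I (acidic) and 1 type II (basic) chain, and a chain without a partner is usually degraded. KRT8 (type II) and KRT18 (type I) are the partners found in simple epithelia, where KRT7 (type II) and KRT19 (type I) are their frequent companions. KRT80 is a type II keratin of cells that have begun to differentiate, and KRT81 is a type II keratin of the hair shaft. Loss of keratins and gain of vimentin are among the usual readouts of the epithelial-to-mesenchymal transition (EMT), the question for which the cells were exposed to IL-1β.

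Between 9116032 and 23570026 reads per library fell on genes. In 11 libraries, 6 untreated and 5 with IL-1β, mitochondrial genes took 11.8% to 24.6% of these counts, against 5.61% to 7.75% in the other 25, and 8 of the 11 carried replicate number 2. No label names a batch for them. Both untreated groups collected 6 and 15 days after withdrawal held 2 such libraries of 3. Of the epithelial markers, CDH1 (E-cadherin) ranged from 27.5 to 319 CPM (counts scaled to a common library size) and EPCAM reached only 1.63. CDH1 was lower with IL-1β by a log2 fold change of -1.10, -1.73 and -2.24 on days 6, 15 and 21 and of -1.29, -0.77 and -0.61 at 6, 15 and 30 days after withdrawal, past both thresholds at the first 4 times by edgeR (adjusted p = 0.0245, 0.000229, 7.15e-06 and 0.0105). The other 3 tested did not pass at any time by edgeR: log2 fold changes lay between -1.16 and -0.32 for EPCAM, between 0.0040 and 0.69 for CLDN4 and between -0.21 and 0.93 for CDH3. The summed level of the 5 epithelial markers, 188 to 321 CPM in untreated cells and 30.1 to 234 CPM with IL-1β, was nearly all CDH1, since none of the others exceeded 2.76 CPM. The surfactant gene SFTPA1, a marker of alveolar type II cells, had no read in 35 of 36 libraries. SFTPC stayed at or under 0.26 CPM and SFTPB reached at most 1.67 CPM. The list of 6 alveolar type II markers summed to 13.1 to 36.5 CPM in untreated cells and 7.97 to 35.8 CPM with IL-1β. Most of this was ABCA3, which was read in every library at 6.62 to 35.96 CPM. Fibroblast and endothelial markers summed to at most 4.09 and 0.348 CPM, and the T cell gene CD3E had no read in 36 of 36. The immune list summed to 1.80 to 16.6 CPM, nearly all of it from CD14.

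All members but KRT19 lie in the keratin cluster of chromosome 12. On GRCh37, KRT80 spans chr12:52562780-52585798 (minus strand), KRT7 chr12:52626304-52645970 (plus), KRT81 chr12:52679697-52685318 (minus), KRT8 chr12:53290971-53343738 (minus) and KRT18 chr12:53342655-53346690 (plus). KRT19 lies at chr17:39679869-39684560 (minus). KRT8 and KRT18 are neighbours that overlap at their ends, where 7.63% of the exon bases of KRT8 and 17.1% of those of KRT18 lie opposite the other gene. Of the exon bases of KRT7, 7.85% lie opposite KRT7-AS and KRT87P. The strand setting of the counting is not given in the sources used here, so reads from these stretches may have been left uncounted or given to either gene.

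Several of the members have close relatives in sequence. Over the aligned coding sequence of the GENCODE transcripts on GRCh37, KRT81 was 93.7% identical to its neighbour KRT86, KRT8 was 95.6% identical to its processed pseudogene KRT8P45, and KRT18 was 95.9% identical to its processed pseudogene KRT18P11. Between members, KRT8 was 75.2% identical to KRT7, 67.8% to KRT81 and 66.2% to KRT80, and KRT18 was 65.0% identical to KRT19.

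Cut into windows of 50 bases, 39.2% of the main transcript of KRT8 was found letter for letter in the transcripts of 38 other genes, most often in the pseudogene KRT8P3. For KRT18 the share was 54.3%, over 47 other genes, and part of it is the overlap with KRT8. For KRT81 it was 44.6%, mainly through KRT86, which held 38.4% of the windows. It was 11.7% for KRT7, 1.79% for KRT19 and 0.418% for KRT80. Reads from the shared windows cannot be assigned to 1 gene by sequence, so counts of KRT8, KRT18 and KRT81 are less certain than those of KRT80.

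Per kilobase of its main transcript, KRT8 was the most abundant of the 6 in untreated cells. Its level had a median of 1793 CPM per kb over the 18 untreated libraries (lowest 991.3, highest 2701). KRT18 followed with a median of 1203 CPM per kb (662 to 1779) and KRT7 with 976 CPM per kb (717 to 1149.8). KRT8 was above KRT18 in 18 of 18 untreated libraries, whereas KRT18 was above KRT7 in 15 of 18, so the last order did not hold in every library. KRT80 and KRT81 came far below, at medians of 48.8 and 41.8 CPM per kb, and could not be ordered, since KRT80 was the higher in only 10 of 18. KRT19 was at or near 0 throughout.

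With IL-1β the order changed. In all 9 libraries taken during exposure KRT7 was the most abundant per kilobase, at 2.11 to 2.77 times the level of KRT8, and KRT81 stood above KRT80 at 1.94 to 6.22 times its level. After withdrawal KRT7 was above KRT8 in 7 of 9 libraries and KRT81 above KRT80 in 9 of 9.

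**Figure D1:**
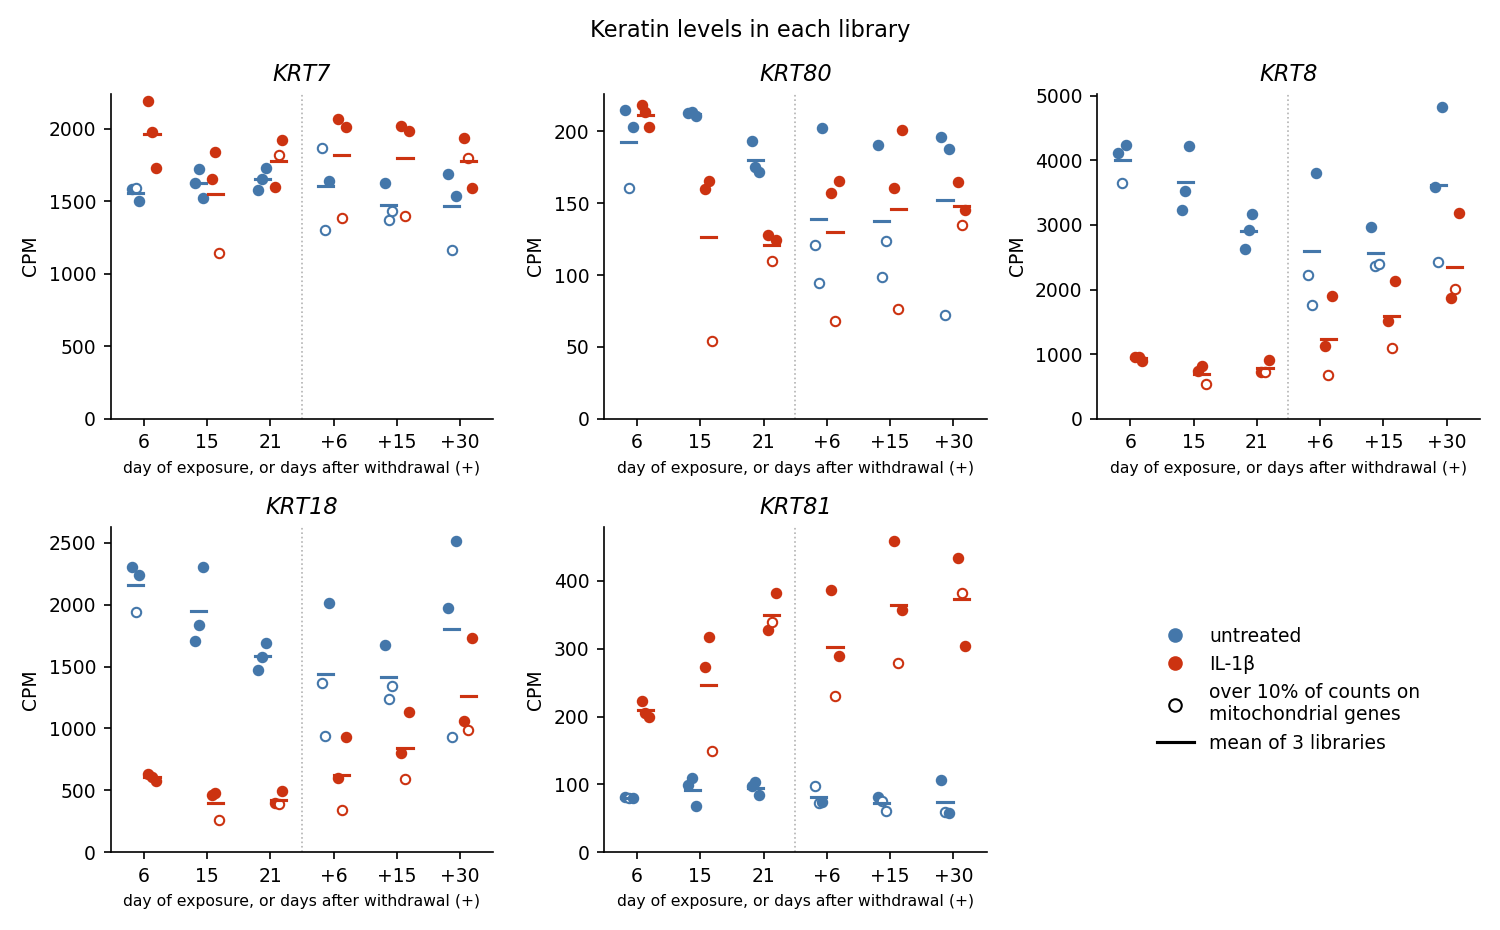
Level of 5 keratins in each of the 36 libraries, in CPM on a linear axis, by time of collection, with untreated cells in blue and IL-1β cells in red. Short lines are means of 3 libraries and open circles are libraries with over 10% of counts on mitochondrial genes; KRT8 and KRT18 lie lower and KRT81 higher with IL-1β during exposure, without overlap.

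IL-1β lowered the filament partners KRT8 and KRT18 together at all 3 times of exposure. It raised KRT81, and the differences of KRT7 and KRT80 did not pass the test. On day 6, 3 of the 5 keratins tested (KRT8, KRT18 and KRT81) passed an adjusted p of 0.05 with a fold change over 2 by edgeR's quasi-likelihood test, against 2.77% of the 19180 genes tested. The same 3 passed on day 15, when 4.24% of all genes did, and on day 21, when 4.26% did. In bulk cultures fewer cells of a kind and less RNA per cell cannot be told apart. The changes are described gene by gene below, first as levels in each library in CPM and then as log2 fold changes of IL-1β over untreated cells with their standard errors.

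KRT8, the basic partner, had 4104, 3649.6 and 4235 CPM in the untreated libraries of day 6 and 949.6, 960.2 and 901 CPM with IL-1β. The groups lay far apart and the IL-1β libraries lay close together. The log2 fold change was -2.09 ± 0.315 (SE, n = 3 per group, adjusted p = 4.9e-05 by edgeR), a 4.26-fold lower level. On day 15 the untreated libraries held 3225, 3529.6 and 4227 CPM against 744, 814 and 538, and the log2 fold change was -2.39 ± 0.318 (adjusted p = 5.94e-06 by edgeR). The lowest of these, replicate 3 with IL-1β, was a library of high mitochondrial share. On day 21 the levels were 2624, 2914 and 3172 CPM against 726, 719 and 904, with a log2 fold change of -1.89 ± 0.313 (adjusted p = 0.000124 by edgeR). No IL-1β library of the exposure period reached the lowest untreated one.

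KRT18, the acidic partner, moved in step. It had 2303, 1938 and 2236 CPM in untreated cells on day 6 and 636, 606 and 575 CPM with IL-1β. On day 15 it had 1709, 1834 and 2301 CPM against 464, 478 and 265, the lowest again in replicate 3 with IL-1β, and on day 21 1475, 1579.8 and 1690.2 CPM against 399.9, 387 and 492. The groups did not overlap on any of these days. Log2 fold changes were -1.83 ± 0.337, -2.28 ± 0.343 and -1.89 ± 0.338 on days 6, 15 and 21 (adjusted p by edgeR 0.00066, 3.57e-05 and 0.00034). Without replicate 1, the calls of both partners were lost on day 6 (adjusted p by edgeR 0.0564 for KRT8 and 0.174 for KRT18) and on day 21 (0.0636 and 0.107), at log2 fold changes of -2.07 and -1.80 on day 6 and -1.90 and -1.89 on day 21. Without the 11 libraries of high mitochondrial share both stayed past both thresholds on all 3 days, at log2 fold changes of -2.13, -2.23 and -1.82 for KRT8 and -1.89, -2.05 and -1.81 for KRT18.

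After withdrawal both partners stood closer to untreated cells. KRT8 had 2230.4, 1768 and 3809 CPM in untreated cells 6 days after withdrawal and 1127, 679 and 1898 CPM in cells that had received IL-1β. The groups overlapped. The log2 fold change was -1.08 ± 0.306 and missed the threshold (adjusted p = 0.0552 by edgeR). KRT18 had 1367, 940.1 and 2013 CPM against 602, 343 and 927, a log2 fold change of -1.21 ± 0.332 that passed (adjusted p = 0.044 by edgeR). At this time 2 of the 5 keratins tested passed (KRT18 and KRT81), against 1.8% of all genes. Without the libraries of high mitochondrial share, which left 1 untreated library, KRT8 passed as well, at -1.32 ± 0.272 (adjusted p = 0.00845 by edgeR), and the fit assumes that the lone library varies like those of other groups. KRT18 lost its call without replicate 1 (adjusted p = 0.907 by edgeR) and without replicate 2 (adjusted p = 0.0833 by edgeR), at -1.22 and -1.17. Both partners lay close to the threshold at this time, and DESeq2 called both.

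By 15 days after withdrawal KRT8 stood at 2959.7, 2359.8 and 2391 CPM in untreated cells and 1519.9, 1096 and 2136 CPM in cells previously exposed. The groups did not overlap, yet the log2 fold change of -0.70 ± 0.304 did not pass (adjusted p = 0.466 by edgeR). KRT18 had 1677, 1241 and 1339.9 CPM against 804, 590.2 and 1131, with a log2 fold change of -0.75 ± 0.329 (adjusted p = 0.466 by edgeR). Here 2 of the 3 untreated libraries, replicates 2 and 3, had a high mitochondrial share and the lower values of both genes. With a high share (over 10% or not) as a covariate KRT18 reached -1.01 ± 0.213 and passed (adjusted p = 0.0052 by edgeR). Without replicate 3, KRT8 passed at -1.03 (adjusted p = 0.05 by edgeR, rounded from just under the threshold).

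At 30 days KRT8 had 3590.2, 2431 and 4818 CPM in untreated cells against 1875, 2007 and 3182, and KRT18 had 1969, 935 and 2514 CPM against 1061, 989.3 and 1729.6. The ranges overlapped for both. The log2 fold changes were -0.62 ± 0.304 (adjusted p = 0.6 by edgeR) and -0.52 ± 0.328 (adjusted p = 0.743 by edgeR), or 25.9% and 22.8% of the largest difference each gene had shown under IL-1β. Untreated replicate 2, of high mitochondrial share, had the lowest untreated level of each. The 95% intervals, from -1.24 to 0.01 for KRT8 and from -1.20 to 0.16 for KRT18, still included a fold change of 2, so the test does not show a full return.

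Whether the responses differed between times was tested as a difference of log2 fold changes over the same 36 libraries. Between day 21 and 30 days after withdrawal the response of KRT8 moved towards 0 by 1.27 ± 0.429 and that of KRT18 by 1.37 ± 0.465 (adjusted p by edgeR 0.311 and 0.314). By edgeR none of the 5 keratins passed, against 0.626% of all genes, although these 2 had an unadjusted p under 0.05, and DESeq2 called none. With a high mitochondrial share (over 10% or not) as a covariate both passed, at 1.11 ± 0.292 and 1.21 ± 0.296 (adjusted p = 0.0492 and 0.0294 by edgeR). In that fit 210 of 19180 genes passed. Without the libraries of high share they were 1.09 and 1.13 and did not pass (adjusted p = 0.119 and 0.0667 by edgeR). The part of the mitochondrial share in these differences was not tested further. Between day 6 after withdrawal and day 21 none of the 5 passed by edgeR, none had an unadjusted p under 0.05 and DESeq2 called none, against 0.136% of all genes. The same held between days 21 and 6 of exposure, where 0.0104% of all genes passed.

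**Figure D2:**
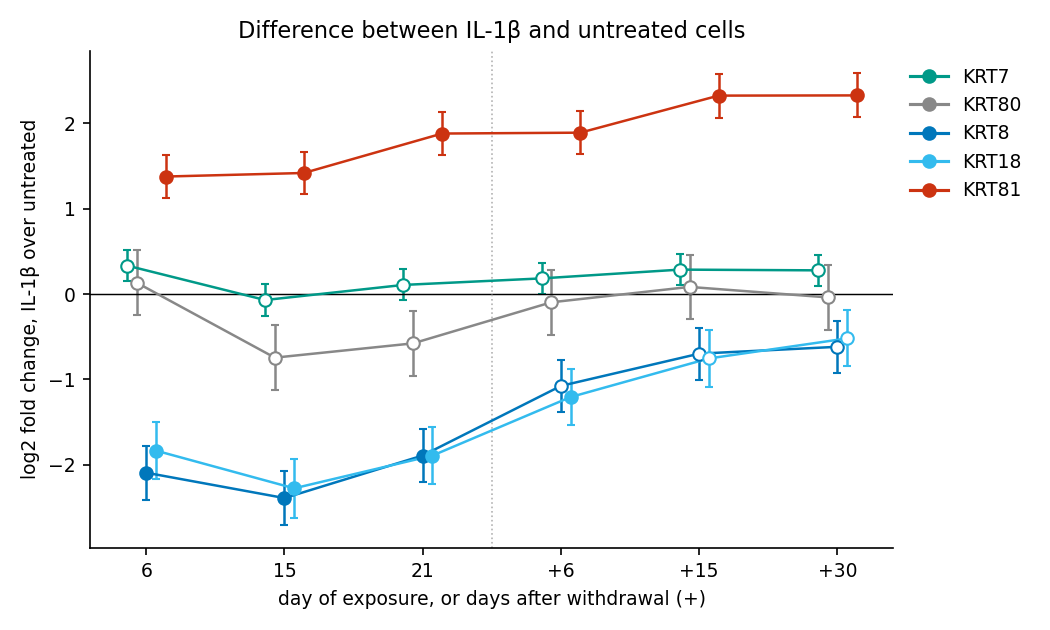
Log2 fold change of IL-1β over untreated cells for 5 keratins at the 6 times of collection, with bars of 1 standard error from the joint edgeR fit. Filled points passed an adjusted p of 0.05 with a fold change over 2; KRT8 and KRT18 run together from -2.39 and -2.28 on day 15 to -0.62 and -0.52 at 30 days after withdrawal, while KRT81 runs from 1.38 to 2.33.

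KRT81, the hair keratin, was low in untreated cells and rose with IL-1β at every time. On day 6 it had 82.0, 79.9 and 80.1 CPM in untreated cells and 222, 206 and 199.9 CPM with IL-1β. On day 15 it had 98.6, 109.9 and 68.3 CPM against 273, 317 and 149, and on day 21 97.2, 103 and 84.6 CPM against 328, 339.8 and 382. None of the groups overlapped. Log2 fold changes were 1.38 ± 0.251, 1.42 ± 0.251 and 1.88 ± 0.254 (adjusted p by edgeR 0.000586, 0.000303 and 6.29e-06). The lowest IL-1β value of day 15 was again replicate 3 with its high mitochondrial share, and without such libraries the log2 fold change of that day was 1.68.

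KRT81 was also higher after withdrawal. At 6 days KRT81 had 97.7, 72.6 and 74.3 CPM in untreated cells and 386, 231 and 289 CPM in cells that had received IL-1β. At 15 days it had 81.3, 76.3 and 60.9 CPM against 459, 279 and 356, and at 30 days 106, 59.6 and 57.6 CPM against 434, 382 and 304. At each of the 3 times every previously exposed library was above every untreated one. The log2 fold changes were 1.89 ± 0.255, 2.32 ± 0.259 and 2.33 ± 0.258 (adjusted p by edgeR 3.39e-05, 3.82e-06 and 4.59e-06), a 3.71-fold, 5.01-fold and 5.02-fold higher level. KRT81 was the only member past both thresholds at 15 and 30 days, when 0.954% and 0.897% of all genes passed. At 30 days its log2 fold change was exceeded by 33 of the 19180 genes tested, and on day 6 of exposure by 318. The response at 30 days against day 21 was larger by 0.45 ± 0.348 on the log2 scale, which did not pass (adjusted p = 0.955 by edgeR, 95% interval -0.27 to 1.17). KRT81 kept its call without each replicate in turn at all 6 times, and when each time point was fitted alone, on 4 residual degrees of freedom, it lost the call at day 15 and at all 3 times after withdrawal.

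KRT7, the other type II keratin of simple epithelia, did not pass at any time. On day 6 it had 1582, 1589.8 and 1503 CPM in untreated cells and 2189, 1973 and 1731 CPM with IL-1β. These groups did not overlap, but the log2 fold change of 0.33 ± 0.182 did not pass (adjusted p = 0.54 by edgeR). At the other 5 times the groups overlapped and log2 fold changes lay between -0.07 and 0.29. Their 95% intervals reached from -0.45 to 0.66 at the widest, which leaves out a fold change of 2 in either direction. Over the 18 untreated libraries KRT7 ranged from 1166 to 1868 CPM, and over the 18 with IL-1β from 1146 to 2189 CPM.

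KRT80 did not pass at any time. On day 15 it had 213, 214 and 210.5 CPM in untreated cells and 160.1, 166 and 53.9 CPM with IL-1β, and on day 21 194, 175 and 172 CPM against 128, 109.7 and 124. The groups did not overlap on either day. The log2 fold changes of -0.74 ± 0.38 and -0.58 ± 0.38 did not pass (adjusted p = 0.32 and 0.657 by edgeR). The value of 53.9 CPM came from replicate 3 with its high mitochondrial share, and without such libraries the differences were -0.38 ± 0.0945 and -0.50 ± 0.0949 with adjusted p of 0.0101 and 0.00108 by edgeR, still under a fold change of 2. At the other 4 times log2 fold changes lay between -0.10 and 0.13.

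The mitochondrial share moved with the level of several members among untreated cells. KRT80 had 172 to 215 CPM in the 12 untreated libraries of low share and 71.9 to 161 CPM in the 6 of high share, without overlap. For KRT8 the ranges were 2624 to 4818 and 1768 to 3649.6 CPM, and for KRT18 1475 to 2514 and 935 to 1938 CPM, with the higher medians at low share. KRT81 had 57.6 to 109.9 CPM at low share and 59.6 to 97.7 at high share, which overlap widely. The part of this share in the differences between groups was not tested beyond the fits given here.

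KRT19, the usual type I companion, was all but absent. It had 0 to 4 counts in every library and at most 0.195 CPM. A count of 0 allows up to 3 counts, which corresponds to 0.119 to 0.387 CPM at these depths, for counting error only. The gene did not pass the filter on low counts and has no fold change. KRT18 therefore supplied nearly all type I transcript among the 6 genes.

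The balance of type II to type I transcript differed with IL-1β, and is given here as a description. The ratio of KRT8 to KRT18 per kilobase was 1.29 to 2.06 in untreated cells, 1.18 to 1.61 during exposure and 1.40 to 1.62 after withdrawal. Over the 36 libraries the log2 CPM of the partners had a Pearson r of 0.99, and of 0.97 for deviations from the group means. These are descriptions over libraries that share the treatment and the mitochondrial share, and over genes that overlap. The summed type II members (KRT7, KRT8, KRT80 and KRT81) exceeded type I 2.07- to 3.22-fold per kilobase in untreated cells and 4.24- to 6.30-fold during exposure, with no overlap over the 18 and 9 libraries. After withdrawal the ratio was 2.42 to 5.63. KRT8 made up a median of 44.04% of the transcripts of the 6 genes per kilobase in untreated cells, 21.7% during exposure and 32.2% after withdrawal, and KRT7 24.8%, 52.4% and 39.3%. KRT81 made up 1.09%, 7.27% and 6.90%. These are RNA levels, and the counts used here hold no measure of protein.

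**Figure D3:**
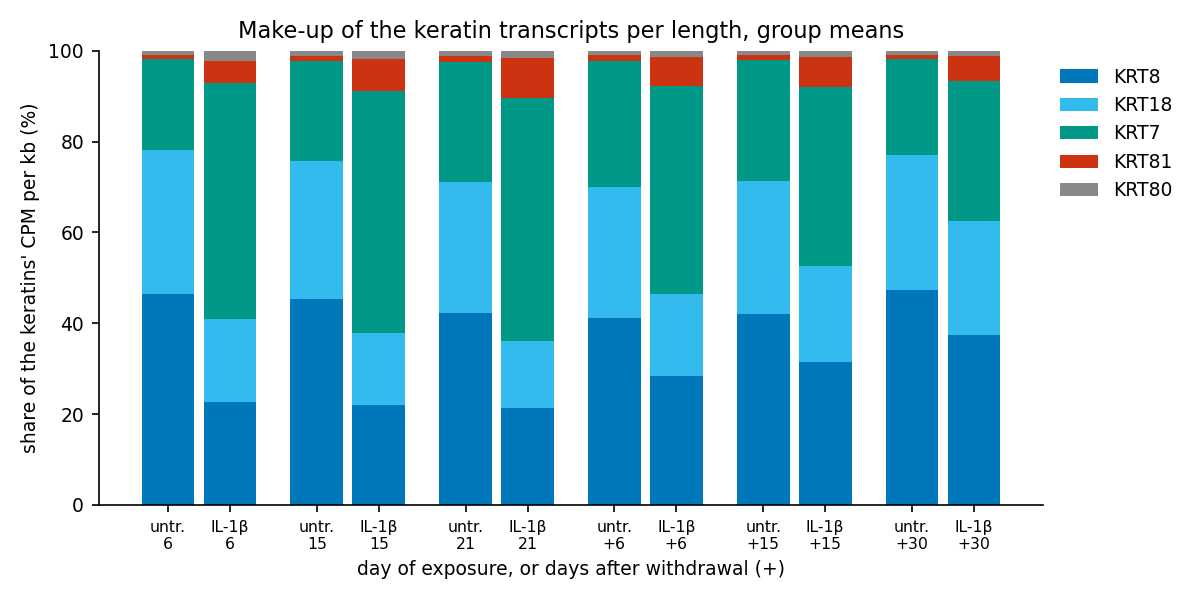
Share of each keratin in the summed CPM per kb of the 6 genes, in percent, from group means of 3 libraries, for untreated and IL-1β cells at each time. KRT19 is not drawn; the KRT8 and KRT18 shares are smaller and the KRT7 and KRT81 shares larger with IL-1β at every time.

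Pseudogenes of KRT8 and KRT18 were examined beside their parents. The files list 51 pseudogenes of KRT8 and 67 of KRT18, of which 30 and 25 had enough counts to be tested. Of the 30, 14, 21 and 15 passed both thresholds on days 6, 15 and 21, all lower, and 7, 3 and 0 at 6, 15 and 30 days after withdrawal. Of all genes tested, 2.77%, 4.24% and 4.26% passed in either direction during exposure and 1.8%, 0.954% and 0.897% after withdrawal. At 30 days 5 of the 30 pseudogenes had an unadjusted p under 0.05 by edgeR and DESeq2 called none. Of the 25 of KRT18, 8, 16 and 7 passed during exposure, all lower, and 2, 0 and 0 after withdrawal, with 3 and 1 at an unadjusted p under 0.05 by edgeR at the last 2 times and none called by DESeq2. Since a pseudogene that is high only in untreated cells enters the test for that reason, these counts describe the copies and support nothing further. KRT8P3 fell from 391 ± 82.9 CPM to 76.5 ± 2.60 CPM on day 6 (SD, n = 3 per group), with a log2 fold change of -2.35. KRT8P45 had a log2 fold change of -2.36 on day 6 and of -0.81 at 30 days after withdrawal, the latter short of the threshold (adjusted p = 0.177 by edgeR). At 15 days after withdrawal KRT8P45 passed at -1.30 (adjusted p = 0.00749 by edgeR), against -0.70 for KRT8. KRT18P11 had -1.82 on day 6 and -0.42 at 30 days (adjusted p = 0.854 by edgeR). KRT18P10 had -2.61 against -1.83 for KRT18 on day 6 and -1.76 against -2.28 on day 15. At 6 and 30 days after withdrawal KRT18P10 had -1.81 and -0.72, against -1.21 and -0.52 for KRT18.

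Pseudogenes took a median of 16.7% of the reads on KRT8 and its copies in untreated cells and 16.9% with IL-1β, and 20.5% and 20.7% for KRT18. The neighbours of KRT81 took 24.2% and 23.5% of the reads on that group. Summing each member with its copies left its calls in place, with log2 fold changes of -2.11, -2.36 and -1.87 for KRT8, -1.85, -2.28 and -1.88 for KRT18 and 1.34, 1.42 and 1.88 for KRT81 on days 6, 15 and 21. At 6 days after withdrawal the sum over KRT8 and its copies passed (-1.12 ± 0.276, adjusted p = 0.0199 by edgeR).

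The hair keratin neighbours of KRT81 rose with it. KRT86, KRT83 and KRT85 encode type II hair keratins of high similarity, and KRT87P is a pseudogene of the same group. KRT86 rose from 11.3 ± 0.933 to 23.6 ± 2.04 CPM on day 6 (log2 fold change 1.07, adjusted p = 0.00637 by edgeR) and stood at 43.9 ± 9.83 against 9.20 ± 2.31 CPM 30 days after withdrawal (log2 fold change 2.25). KRT85, which is less alike (86.5% identity to KRT81), was at 8.54 ± 1.60 against 1.84 ± 0.459 CPM on day 21, a log2 fold change of 2.22 (adjusted p = 2.14e-06 by edgeR). All 4 neighbours passed both thresholds at every time but day 15 of exposure, when KRT83 missed it (adjusted p = 0.0887 by edgeR). Of all genes tested, 0.897% to 4.26% passed at the 6 times. Within the shared windows given above, reads of KRT81 placed on its neighbours could not be told from reads of the neighbours. The part of such reads in the rise of the neighbours was not tested.

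**Figure D4:**
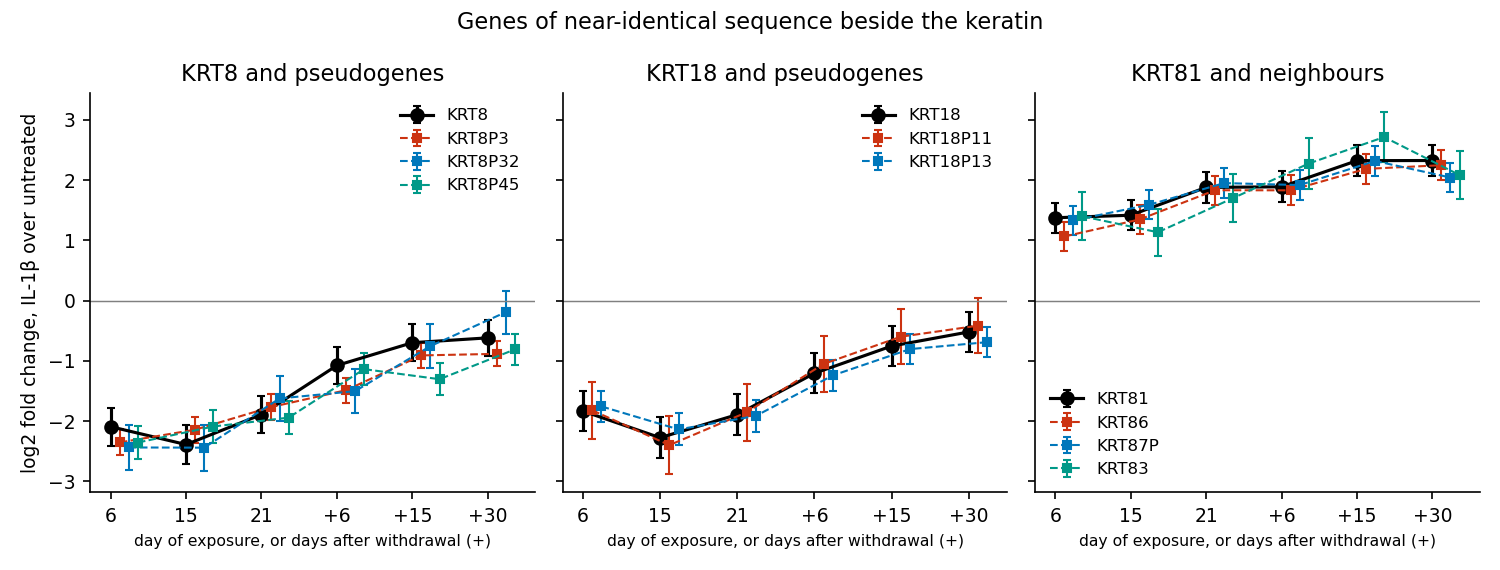
Log2 fold change of IL-1β over untreated cells for KRT8, KRT18 and KRT81 (black) and for genes of near-identical sequence (colours) at the 6 times, with bars of 1 standard error. The pseudogenes drawn for KRT8 and KRT18 mostly run near their parents and lie closer to 0 at 30 days after withdrawal than on day 21. KRT8P45 departs at 15 days, at -1.30 against -0.70 for KRT8. KRT18P10 is not drawn. KRT86, KRT83 and KRT87P stay between 1.07 and 2.72.

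Beyond the 6 members, 48 other keratin genes were looked up, 26 of type I and 22 of type II, and 15 had enough counts to be tested. Of these, 5 were higher and 2 lower past both thresholds on day 6, 4 and 2 on day 15 and 7 and 1 on day 21, where 2.77%, 4.24% and 4.26% of all genes tested passed in either direction. After withdrawal 4 were higher and 1 lower at 6 days, 3 and 0 at 15 days and 4 and 0 at 30 days, against 1.8%, 0.954% and 0.897% of all genes. Nearly all were low, and 9 passed at 1 time or more. A low gene may enter the test only through the groups where it is high, so these counts are a description and support nothing further. The counts of higher genes include KRT83, KRT85 and KRT86, which share sequence with KRT81, at every time but KRT83 on day 15. KRT4, a type II keratin of mucosal epithelium, had the largest difference of the 9 on day 21. It had 60.5 to 64.2 CPM in untreated cells on day 6 and 0.633 to 1.38 CPM with IL-1β, and its log2 fold change was -6.02 ± 0.615 (adjusted p = 1.29e-07 by edgeR). On day 21 the log2 fold change was -5.28 ± 0.603, with the lowest IL-1β library at 0.0749 CPM, under the floor of 3 counts. At 30 days after withdrawal KRT4 had 46.2 to 73.4 CPM in untreated cells and 15.9 to 35.5 CPM in cells previously exposed, a log2 fold change of -1.33 that did not pass (adjusted p = 0.262 by edgeR). Its difference from untreated cells at 30 days was smaller than on day 21, and this change of response was itself past the threshold (3.95 ± 0.742 on the log2 scale, adjusted p = 0.00451 by edgeR).

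KRT15, a type I keratin of basal cells, rose from 2.13 ± 0.484 to 6.59 ± 1.61 CPM on day 21 (log2 fold change 1.62, adjusted p = 0.000106 by edgeR) and did not pass after withdrawal. KRT34, a type I hair keratin, rose from 0.399 to 2.04 CPM on day 21 (log2 fold change 2.38, adjusted p = 0.0144 by edgeR). KRT82 and KRT84, type II hair keratins, had no more than 2.51 CPM on average in any group and passed both during exposure and after withdrawal. On day 21 their log2 fold changes were 2.42 and 2.19 (adjusted p = 0.0107 and 0.00673 by edgeR). KRT82 passed again 6 days after withdrawal (adjusted p = 0.0236 by edgeR), when untreated libraries were at or under the floor of 3 counts and its level was at least 3.72-fold higher than that floor. KRT84 passed again at 30 days, at 2.48 against 0.266 CPM (log2 fold change 3.30, adjusted p = 0.00371 by edgeR). KRT3, a corneal type II keratin, was at or under the floor of 3 counts in every IL-1β library of day 6, where the untreated mean was at least 3.33-fold higher than this floor. At such levels KRT3, KRT34, KRT82 and KRT84 may have passed the filter on low counts only through the groups where they were high. Their calls are descriptions and support nothing further. The remaining named genes were KRT83, KRT85 and KRT86 of the hair group above.

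Of the other intermediate filaments, 12 were listed. Of the 7 tested, none passed both thresholds at any of the 6 times by edgeR or by DESeq2, and 2, 3, 2, 1, 0 and 0 had an unadjusted p under 0.05 by edgeR, in order of time. Vimentin (VIM), the filament of mesenchymal cells, had 630 ± 18.6 CPM in untreated cells and 1111 ± 423 CPM with IL-1β on day 15, a log2 fold change of 0.82 ± 0.238 (adjusted p = 0.0336 by edgeR) that was under the fold threshold. At the other 5 times its log2 fold change lay between 0.07 and 0.51. Of 19 listed genes for proteins that anchor or bind keratins, 17 were tested, and 1, 2 and 2 passed on days 6, 15 and 21, all lower, against 2.77%, 4.24% and 4.26% of all genes tested. DSP (desmoplakin), which ties keratin filaments to desmosomes, had 167 ± 15.4 CPM in untreated cells and 62.8 ± 7.80 CPM with IL-1β on day 21 (log2 fold change -1.41, adjusted p = 0.003 by edgeR). PPL (periplakin), a linker of keratins to the cell margin, had 29.6 ± 2.24 against 11.5 ± 4.63 CPM (log2 fold change -1.35, adjusted p = 0.0077 by edgeR). ITGB4, a hemidesmosomal integrin chain named here after its values were seen, passed on day 15 alone by edgeR (log2 fold change -1.48, adjusted p = 0.0129). After withdrawal none of the 17 passed by edgeR, at 3, 2 and 2 with an unadjusted p under 0.05, and DESeq2 called DSP at 6 days (log2 fold change -1.05, adjusted p = 0.036). The median log2 fold change of the 17 on day 21 was -0.06 against -0.01 for all genes tested.

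Time in culture was examined in untreated cells alone. Between day 6 and the last collection, 30 days after withdrawal, the log2 differences in untreated cells were -0.15 ± 0.302 for KRT8, -0.26 ± 0.327 for KRT18, -0.12 ± 0.247 for KRT81, -0.09 ± 0.182 for KRT7 and -0.34 ± 0.379 for KRT80. None passed by edgeR, none had an unadjusted p under 0.05 and DESeq2 called none, against 0.0104% of all genes that passed. Their 95% intervals ran from -1.12 at the lowest (KRT80) to 0.48 at the highest (KRT8).

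Outside the keratin family, 10133 genes of at least 3 mean log2 CPM were compared with each member over the 36 libraries. The genes most like KRT8 were ZNRF3, CYP4F3 and TM4SF4 (Pearson r of log2 CPM 0.97, 0.96 and 0.96), and those most like KRT18 were RAP1GAP, BIN1 and PLXND1 (0.97 each). KRT81 was most like PARP12 (0.93), FSTL1 (0.92) and EXT1 (0.92). KRT80 was most like CDC34, COL4A2 and COL18A1 (0.96, 0.96 and 0.95), and KRT7 like CD63, ZMIZ2 and ELFN2 (0.91, 0.91 and 0.90). Over the 12 group means these r values lay between 0.91 and 0.98. The libraries share the treatment and the mitochondrial share, so these are descriptions of likeness alone.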

How the data were processed

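Total RNA of A549 cells was sequenced as single-end libraries (KAPA Stranded mRNA-Seq, Illumina) in 36 samples. The authors deposited raw counts of reads per gene, and the submitters' processing notes name bcl2fastq 2.17, TopHat2 2.0.14, Bowtie2 2.2.5 and HTSeq 0.6.1 with GRCh37. The strand setting and annotation release are not given in the sources used here. Lines that name no gene were left out: 8.48% to 18.6% of reads had no feature and 2.62% to 4.18% were ambiguous. Depth was 9116032 to 23570026 counts on genes per library, and floors cover counting error only. Intervals of log2 fold changes were built from the edgeR standard errors, which include the spread between replicate libraries.

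Counts were fitted jointly over the 12 groups with edgeR 4.0.16 in R 4.3.3 (TMM, filterByExpr, quasi-likelihood F-test, 24 residual degrees of freedom, 2-sided). This left 19180 genes of 39471 with any count. A call needed a Benjamini-Hochberg adjusted p under 0.05 over all genes tested and a fold change over 2. The standard error is the absolute log2 fold change of the unshrunk coefficients divided by the square root of F. In genes of very few counts this fold change can differ from the one reported. CPM were counts divided by the library size over the tested genes after scaling by the TMM factor, and log2 CPM used a prior count of 2. The TMM factors were 0.78 to 0.99 in libraries of high mitochondrial share and 1.03 to 1.09 in the others, so the scaling bears on comparisons of levels between them. Transcript lengths and the sequences compared came from GENCODE on GRCh37, and stretches of sequence are not reported here. The fit was tested on simulated data. Alternatives were DESeq2 1.42.0, other scalings and filters, separate fits, a replicate block and each replicate left out. Further ones were a high mitochondrial share (over 10% or not) as a covariate, those libraries left out, and reads summed over near-identical copies.

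The keratins and gene lists were chosen with earlier results of these data known. The text names keratins outside the 6 that passed at 1 time or more, and genes of the other lists that passed at 2 or more, with vimentin and the most abundant copies of each keratin. A group was called by its labels.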

Additional observations from a re-analysis of the deposited data

Results flagged for a closer look

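KRT4, a type II keratin of mucosal epithelium outside the 6 genes, had a response to IL-1β that differed between times. Its log2 fold change was -5.28 ± 0.603 on day 21 of exposure and -1.33 ± 0.474 at 30 days after withdrawal. The difference of 3.95 ± 0.742 on the log2 scale was tested as such in the joint edgeR fit (adjusted p = 0.00451). KRT4 had 28.6 ± 5.92 CPM in untreated cells and 0.649 ± 0.830 CPM with IL-1β on day 21, and 56.8 ± 14.6 against 22.6 ± 11.2 CPM at 30 days (SD, n = 3 per group). The lowest IL-1β library of day 21 had 0.0749 CPM, under the floor of 3 counts (0.119 to 0.387 CPM). The sizes of the day 21 difference and of the change of response are therefore uncertain.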

How the results depend on the processing

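KRT8, KRT18 and KRT81 kept their direction at all 6 times under each alternative run. The number of keratins past both thresholds 6 days after withdrawal, 2 in the joint fit, was 1 when libraries were scaled by total counts alone, 1 when every sample needed 10 counts, and 0 when time points were fitted separately. Separate fits on 4 residual degrees of freedom also gave 0 at 15 and 0 at 30 days after withdrawal, against 1 each. With a high mitochondrial share (over 10% or not) as a covariate the count was 2 at 15 days. It was 2 for the response at 30 days against day 21, and with covariate and replicate block together again 2 and 2. Calls over all 19180 genes rose as well with the covariate, from 183 to 271 at 15 days and from 120 to 210 for that response. With covariate and block together they were 291 and 228. Leaving out 1 replicate at a time gave 1 to 3 keratins on day 6, 1 to 3 on day 21, 1 to 3 at 6 days and 1 to 2 at 15 days after withdrawal. Shares over all genes are not given for the other scalings and filters, the separate fits or the fits without 1 replicate. These keratin counts are therefore a description. The cause of the differences in count was not tested.

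Same-numbered libraries deviated together in 14 of 18 pairs (correlation over 0.1, range -0.336 to 0.718), not in all 18, so the numbers were not taken to pair the samples. With the replicate block 3 keratins passed 6 days after withdrawal, KRT8 at -1.09 (adjusted p = 0.0103 by edgeR), and no other count of keratins changed. Over all 19180 genes tested, 381 passed at that time with the block and 346 without it.

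The signs that turned belonged to differences that passed under no setting. For KRT81, the response at 6 days after withdrawal against day 21 (0.01) was -0.00081 with DESeq2 size factors, -0.0067 without a filter, -0.0010 by DESeq2, -0.011 with the replicate block, -0.21 with the covariate, -0.29 with both and -0.12 to 0.12 without 1 replicate. In the same comparison KRT7 was -0.11 and -0.12 and KRT80 -0.14 and -0.17 with the covariate and with both. KRT80 at 30 days was 0.024 with the replicate block, 0.098 with the covariate, 0.094 with both and -0.32 to 0.14 without 1 replicate. KRT80 was -0.16 and -0.17 on day 6 and -0.24 and -0.26 at 15 days after withdrawal with the covariate and with both, where it was -0.070 without high-share libraries and -0.29 to 0.30 without 1 replicate. KRT80 at 6 days was -0.35 to 0.065 without 1 replicate. KRT18 on day 21 against day 6 was 0.41 and 0.39 with the covariate and with both, 0.076 without high-share libraries and -0.21 to 0.070 without 1 replicate. KRT7 on day 15 was 0.11 without high-share libraries and -0.15 to 0.070 without 1 replicate. In untreated cells over time, KRT7, KRT8 and KRT81 were 0.069, 0.017 and 0.018 without high-share libraries, and -0.18 to 0.072, -0.35 to 0.019 and -0.43 to 0.050 without 1 replicate.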
